A study of Sus scrofa with 6 samples.

Results

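Genes of the splicing machinery and of related RNA-binding proteins were examined in porcine granulosa cells (GCs) that overexpressed retinol binding protein 4 (*RBP4*). They were chosen by symbol, with earlier results of these data known. Taken were genes whose name begins with RBM and a digit, RBMX, SRSF, HNRNP, SNRP, SF3A, SF3B, LSM and a digit, PRPF, U2AF or CELF. This gave 79 of the 17950 genes in the deposited table. Of these, 12 were small proteins of the small nuclear ribonucleoprotein particles (SNRP) or LSM proteins, and 67 were larger factors. Genes without a symbol could not be found, so the families and complexes below may be incomplete. The GCs, the somatic cells around the oocyte, came from ovaries of Landrace gilts before puberty and were grown as primary cultures. Both groups were infected with a lentivirus for 72 h and received a fluorescent reporter, ZsGreen. The pLVX-*RBP4* group received porcine *RBP4* in addition, while the CTRL group received the vector without it. There were 3 RNA-seq libraries per group, described in the study as biological triplicates, and no source used here says whether a library came from one animal or from several.

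Pre-mRNA splicing removes introns and joins exons. It is carried out by the spliceosome, in which small nuclear RNAs sit in particles with rings of Sm or LSM proteins, and in which SF3 and PRPF proteins form the body of the U2 and U5 particles and guide assembly. SR proteins (SRSF), heterogeneous nuclear ribonucleoproteins (HNRNP), RBM proteins and CELF proteins bind the transcript and influence which splice sites are used. Many of these proteins are made in every cell type, since nearly all pre-mRNAs depend on them.

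The deposited table holds 1 value per gene and group, in FPKM, the number of sequenced fragments per length of transcript and per depth of sequencing. How the authors combined the 3 libraries of a group into that value is not stated. The spread between libraries is therefore not known, no test between the groups could be made, and every difference below is a description of the deposited group values. Differences were taken as log2(FPKM + 1) of the pLVX-*RBP4* group minus that of the CTRL group, for the 12382 genes whose 2 group values averaged 1 FPKM or more. The added 1 makes the difference of weakly expressed genes smaller than their ratio. A difference of 0.2 on this scale is a fold of 1.15 for a well expressed gene, and it was used as a limit for counting. The depth of the libraries is not held in the table, but the study's supplement gives it. There, every pLVX-*RBP4* library had more uniquely mapped reads and a larger mapped share than every CTRL library. What part this has in the differences was not tested, and it cannot be told apart from the group. As a group value of bulk RNA, each number can reflect a different share of cells of one type or a different amount of RNA per cell, and these cannot be told apart.

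*RBP4* itself had 1.10 FPKM in CTRL and 92.3 FPKM in pLVX-*RBP4*, the latter with the introduced copy. Of 16 granulosa markers, 8 were found by symbol, all 8 were above 1 FPKM, and 6 were lower in pLVX-*RBP4* as deposited (4 with a common sum). They ranged from -0.21 for *FSHR*, the receptor of follicle-stimulating hormone (9.99 and 8.47 FPKM), to 0.26 for *FST*, which encodes follistatin (20.5 and 24.7 FPKM). Their sum was 814.7 FPKM in CTRL and 806.8 FPKM in pLVX-*RBP4*, mostly from *CYP11A1* with 672.9 and 669.4 FPKM. Theca and fibroblast markers (4 of 7 found) summed to 242.7 and 292.7 FPKM. Of these, *DCN* had 168.6 and 210.1 FPKM and *COL1A2* 61.5 and 71.1 FPKM, while *PDGFRA* had 12.6 and 11.2 FPKM and the theca gene *INSL3* was listed at 0 in CTRL and had 0.292 FPKM in pLVX-*RBP4*. White blood cell markers (5 of 7 found) summed to 47.8 and 54.2 FPKM, mostly from *CD14* (42.9 and 48.9 FPKM). *CD68* had 4.02 and 4.59 FPKM, *CSF1R* 0.414 and 0.428 FPKM and *ITGAM* 0.153 and 0.155 FPKM. Only *PTPRC*, which marks all white blood cells, was lower, with 0.229 and 0.166 FPKM. Endothelial, epithelial and oocyte markers, with 2, 3 and 1 genes found of 5 each, summed to 19.9, 13.3 and 3.36 FPKM in CTRL and to 19.0, 13.5 and 3.51 FPKM in pLVX-*RBP4*. What part these cells have in the values of the splicing genes was not tested.

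Among the 79 splicing genes, 73 passed this filter. The difference was positive for 45 of the 73 (61.6%), against 50.2% of all 12382 genes. A value at least 0.2 higher in pLVX-*RBP4* was found for 15 genes (20.5%, all genes 16.8%), and a value at least 0.2 lower for 4 genes (5.48%, all genes 14.3%). Within 0.2 of 0 lay 54 of the 73 genes (74.0%), a share near the 68.9% of all genes. At least 0.5 away from 0 was 1 gene of 73 (1.37%), *RBM34*, against 4.05% of all genes. The symbol of *RBM34* came from the study's own list of differing genes, so its difference is not independent of its choice. Without it, 44 of 72 genes were higher (61.1%), 14 were at least 0.2 higher (19.4%) and 0 were at least 0.5 away from 0. The median of the 73 differences was 0.082, and that of all genes was 0.0014.

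The 6 splicing genes below the level filter had at most 0.147 FPKM in either group. These were *CELF3* and *CELF5*, best known from neurons, *RBM20*, a splicing regulator of heart muscle, *RBM44* and *RBM46*, best known from germ cells, and *LSM8*, which belongs to the nuclear LSM ring. *RBM44* and *LSM8* were listed at 0 in pLVX-*RBP4* and had 0.0453 and 0.0355 FPKM in CTRL. By contrast, *LSM3*, *LSM5* and *LSM7*, which belong to the same ring as *LSM8*, each had 22.04 FPKM or more in both groups. The cause of the low *LSM8* value was not tested. No gene with a U2AF symbol was found.

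The small SNRP and LSM genes had a higher median difference than the larger factors. Of the 11 small genes above the filter, 9 were higher in pLVX-*RBP4* (81.8%, against 50.2% of all genes), 6 were at least 0.2 higher (54.5%, against 16.8% of all genes) and 0 were at least 0.2 lower. Their median difference was 0.22, with a range from -0.11 for *SNRPA* to 0.48 for *SNRPF*. Of the 62 larger factors, 36 were higher (58.1%) and 9 were at least 0.2 higher (14.5%), a share close to that of all genes, and their median was 0.060. Without *RBM34*, whose symbol came from the study's own list of differing genes and not from the Ensembl names, the median of the larger factors was 0.044.

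**Figure D1:**
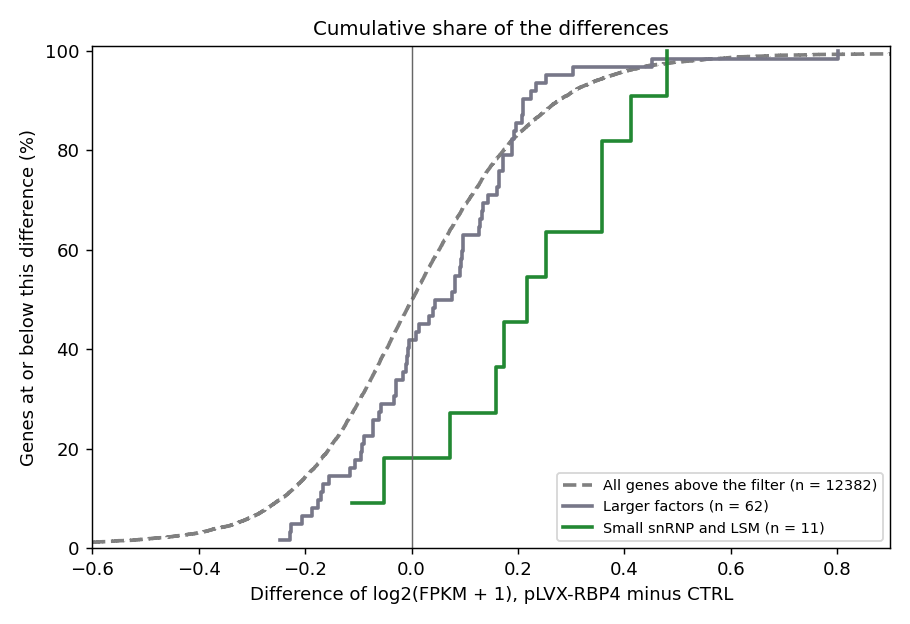
Cumulative share of genes (vertical axis, percent) at or below each difference of log2(FPKM + 1) between the pLVX-*RBP4* and CTRL groups (horizontal axis), for all 12382 genes above the filter (dashed), the 62 larger factors (grey) and the 11 small SNRP and LSM genes (green). The green line lies to the right, with a median of 0.22, while the grey line, with a median of 0.060, lies near that of all genes. Genes with larger differences than the axis spans are not drawn.

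Sm proteins form a ring around the Sm site of the U1, U2, U4 and U5 small nuclear RNAs. Of 8 genes listed for this ring, 4 were found by symbol, and all 4 were higher in pLVX-*RBP4*, against 50.2% of all genes. *SNRPE* was the most abundant, with 117.1 FPKM in CTRL and 150.5 FPKM in pLVX-*RBP4* (difference 0.36, ratio 1.28). *SNRPF*, its partner in the ring, had 37.0 and 52.0 FPKM (difference 0.48, ratio 1.41), the 315th highest difference of all 12382 genes. The other two had smaller differences. *SNRPD1* had 16.1 and 18.9 FPKM (0.22), and *SNRPN* had 36.2 and 41.0 FPKM (0.17). *SNRPN*, an imprinted gene, encodes a protein nearly identical to that of *SNRPB*, and how the authors' counting shared reads between such copies is not known. Summed over the 4 genes, the ring had 206.5 FPKM in CTRL and 262.4 FPKM in pLVX-*RBP4*, a ratio of 1.27.

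For the 2 genes found of 4 listed proteins that are specific to the U1 or the U2 particle, the values went both ways. *SNRPA*, which binds a stem-loop of the U1 RNA, had 38.6 FPKM in CTRL and 35.6 FPKM in pLVX-*RBP4* (-0.11). *SNRPA1*, a protein of the U2 particle, had 27.2 and 30.5 FPKM (0.16). Their sum was 65.8 FPKM in CTRL and 66.1 FPKM in pLVX-*RBP4*, a ratio of 1.005.

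LSM proteins form rings like those of Sm proteins, 1 in the nucleus on the U6 RNA and 1 in the cytoplasm that takes part in the decay of mRNA. Of 8 genes listed for the rings, 4 were found, and the 3 above the filter were each at least 0.2 higher in pLVX-*RBP4*, against 16.8% of all genes. *LSM7* had 76.7 FPKM in CTRL and 102.4 FPKM in pLVX-*RBP4* (0.41, ratio 1.34). *LSM3* had 35.7 and 46.1 FPKM (0.36). *LSM5* had 22.04 and 26.5 FPKM (0.25). All 3 proteins belong to both rings.

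The LSM14 proteins are larger, act in mRNA storage and translational repression in the cytoplasm, and are no part of these rings. *LSM14A* had 69.9 and 73.6 FPKM (0.073), and *LSM14B* had 11.1 and 10.7 FPKM (-0.051, but positive when the columns were scaled to a common sum). Hence 7 of the 7 ring genes above the filter were higher, against 50.2% of all genes, and of the 4 other small-class genes 2 were higher and 2 lower as deposited. Protein and transcript lengths were not analysed. Whether this count is particular to the rings or shared by other genes of short proteins was not tested.

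**Figure D2:**
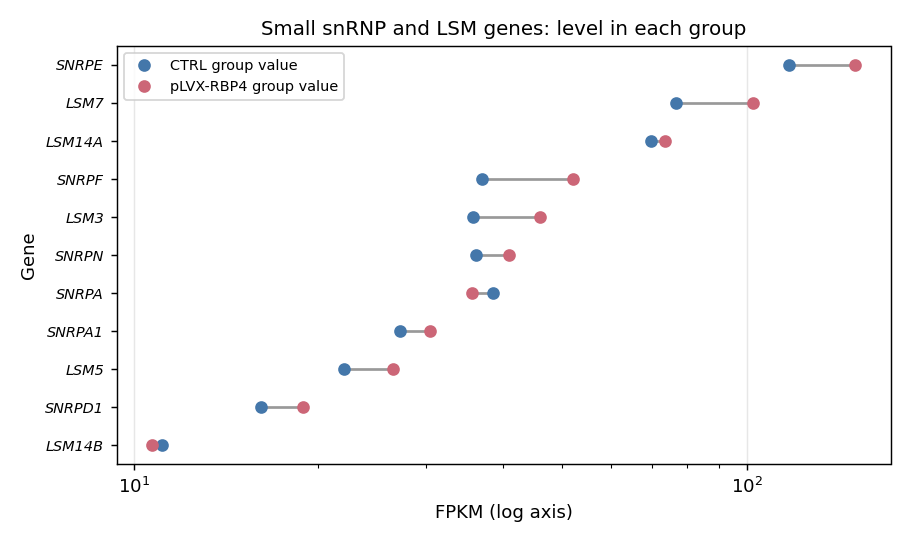
FPKM (log axis) of the 11 small SNRP and LSM genes above the filter, ordered by mean level, with the CTRL value in blue and the pLVX-*RBP4* value in red. *SNRPE*, *LSM7*, *SNRPF* and *LSM3* have the widest gaps toward the red point, while *SNRPA* and *LSM14B* have the blue point on the right (for *LSM14B* not when scaled to a common sum).

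The small class was also set beside genes of similar level. Over the range of mean levels that it spans, from 10.9 to 133.8 FPKM, there were 5765 genes, of which 52.2% were higher in pLVX-*RBP4* and 16.0% at least 0.2 higher, with a median of 0.0091. Genes above 100 FPKM were more often higher (67.1% of 1092), and *SNRPE* was the single small-class gene in that range.

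SR proteins bind exonic enhancers through RNA recognition motifs and recruit the spliceosome through their arginine- and serine-rich tails. The 6 SRSF genes found by symbol had a median difference of 0.14, and 4 were higher, against 50.2% of all genes. *SRSF7* had the largest difference, with 7.76 FPKM in CTRL and 9.81 FPKM in pLVX-*RBP4* (0.30, ratio 1.26). *SRSF9*, the most abundant, had 157.9 and 181.1 FPKM (0.197). *SRSF3*, which also acts in mRNA export, had 33.3 and 38.1 FPKM (0.19) and was picked after its values were seen. These 3 and *SRSF1* (37.3 and 40.0 FPKM) were the higher genes. The lowest 2 were *SRSF6*, with 63.7 and 63.3 FPKM (-0.0089), and *SRSF11*, with 54.1 and 51.9 FPKM (-0.057), and both turned positive with a common sum.

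HNRNP proteins coat nascent transcripts and often repress splice sites. All 11 genes found by symbol were above the filter, and the range from -0.095 to 0.21 was narrow. In pLVX-*RBP4* 7 were higher, against 50.2% of all genes and 67.1% of all genes above 100 FPKM. *HNRNPA1* was the most abundant of all splicing genes, with 424.0 FPKM in CTRL and 448.8 FPKM in pLVX-*RBP4* (0.082). It has many processed copies in mammalian genomes, and how its reads were shared with them is not known. *HNRNPR* had 43.9 and 50.9 FPKM (0.21), and *HNRNPH1*, which binds runs of guanines, had 89.7 and 102.5 FPKM (0.19). The 2 HNRNPU-like genes were the lowest of the family. *HNRNPUL1* had 81.6 and 77.6 FPKM (-0.072, positive with a common sum), and *HNRNPUL2* had 104.8 and 98.1 FPKM (-0.095). Summed over the family, the level was 1352 FPKM in CTRL and 1413 FPKM in pLVX-*RBP4*, a ratio of 1.05.

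SF3a and SF3b are the 2 complexes by which the U2 particle holds the branch site of the intron. The 6 of their genes found by symbol went in both directions, with 3 higher, against 50.2% of all genes, and 3 lower. Other genes of these complexes, such as *SF3B1*, were not found by symbol. The median was 0.0054, and it was -0.032 with a common upper quartile. *SF3B6*, a small protein that lies at the branch point, had 30.8 FPKM in CTRL and 42.5 FPKM in pLVX-*RBP4* (0.45, ratio 1.38), the second largest difference among all splicing genes outside the small class. *SF3A3* had 35.5 and 41.7 FPKM (0.23). Lower values in pLVX-*RBP4* were found for *SF3A1*, with 10.9 and 9.12 FPKM (-0.23), and *SF3B3*, a large scaffold protein, with 39.2 and 34.8 FPKM (-0.17). *SF3B2*, the most abundant of the 6, had 52.7 and 51.6 FPKM (-0.030, positive with a common sum).

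Ratios between members of a complex do not depend on how the 2 columns are scaled. The ratio of *SF3B6* to *SF3B3* was 0.786 in CTRL and 1.22 in pLVX-*RBP4*, and that of *SF3A3* to *SF3A1* was 3.27 and 4.57. Other pairs of that machinery were closer, such as *SF3B4* to *SF3B2* with 0.889 and 0.934. Within the rings, the ratio of *LSM7* to *LSM3* was 2.14 and 2.22, that of *SNRPF* to *SNRPE* 0.316 and 0.346, and that of *SNRPF* to *SNRPN* 1.02 and 1.27. Between *SNRPF* and the U1 gene *SNRPA*, the ratio was 0.959 in CTRL and 1.46 in pLVX-*RBP4*. These pairs were picked after the values were seen. The first 2, and *SNRPF* to *SNRPN*, set the genes with the highest and the lowest difference found in a complex or ring against each other. *SNRPF* and *SNRPA* are those of the small class.

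PRPF genes encode factors of several steps, from the U4/U6.U5 tri-particle to the catalytic spliceosome. Of 11 genes found by symbol 7 were higher, against 50.2% of all genes, with a median of 0.076. *PRPF38A*, needed for activation of the spliceosome, had 16.4 FPKM in CTRL and 19.7 FPKM in pLVX-*RBP4* (0.25). *PRPF19*, a ubiquitin ligase and the most abundant of the family, had 54.9 and 58.8 FPKM (0.096). The 2 lowest were both U5 proteins of the tri-particle. *PRPF6* had 32.9 and 28.3 FPKM (-0.21), and *PRPF8*, the large protein at the catalytic centre, had 52.0 and 48.2 FPKM (-0.11). The ratio of *PRPF38A* to *PRPF6* was 0.499 in CTRL and 0.696 in pLVX-*RBP4*. This pair, the highest and the lowest difference of the family, was picked after the values were seen. Summed over the 5 tri-particle genes (*PRPF3*, *PRPF4*, *PRPF6*, *PRPF8* and *PRPF31*), the level was 137.4 and 133.5 FPKM.

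**Figure D3:**
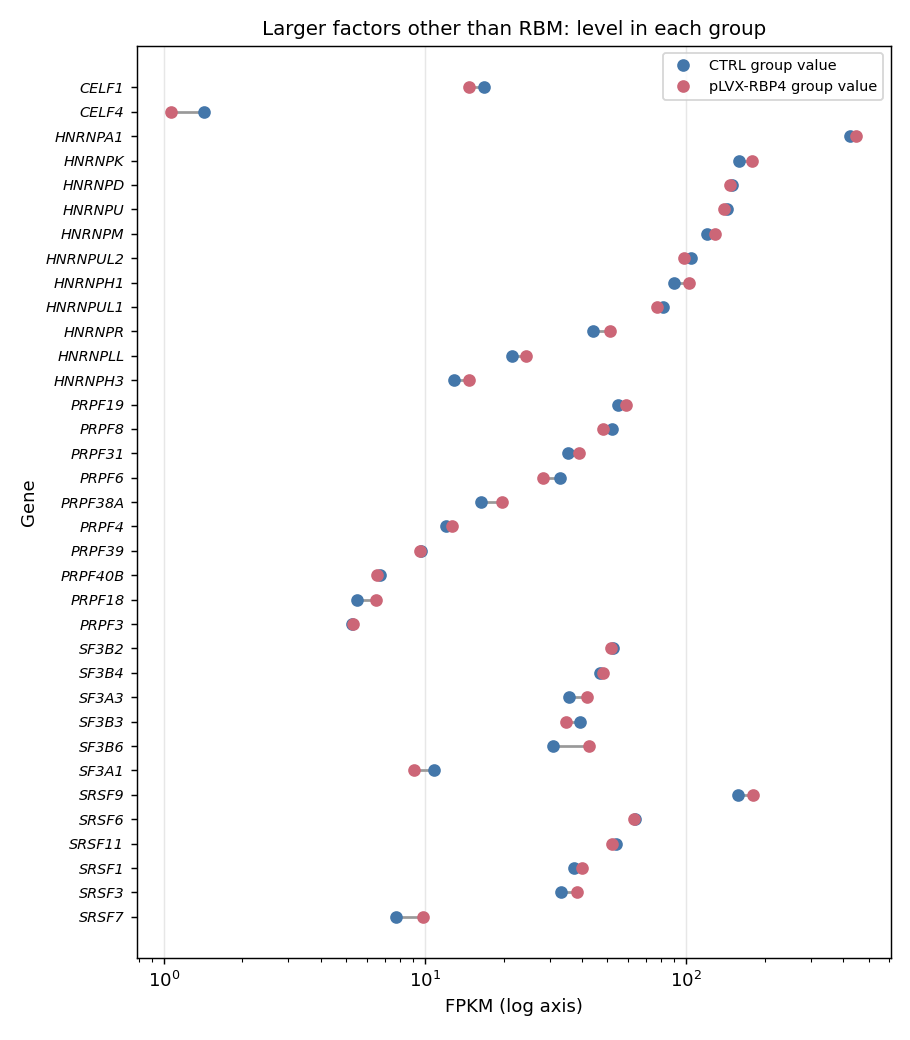
FPKM (log axis) of larger factors outside the RBM family with a level above the filter, grouped by family and ordered by mean level, with CTRL in blue and pLVX-*RBP4* in red. The points of most genes nearly touch, as for *SRSF6* (63.7 and 63.3 FPKM), and *SF3B6* has the widest gap toward the red point by difference of log2(FPKM + 1).

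CELF proteins bind GU-rich sequence and act in splicing and mRNA decay. *CELF1*, the broadly expressed gene of the family, had 16.8 FPKM in CTRL and 14.8 FPKM in pLVX-*RBP4* (-0.17). *CELF4* was weakly expressed, with 1.42 and 1.07 FPKM (-0.23). Of these 2 genes above the filter none was higher, against 50.2% of all genes, and 2 genes are too few to describe the family.

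RBM genes, named for their RNA recognition motif, are the largest family here and have diverse roles. Of 29 genes found by symbol 26 were above the filter, and 15 of these were higher (57.7%, against 50.2% of all genes). Their median of 0.038 lies within the middle 50% of all genes (-0.12 to 0.14). *RBM34*, a nuclear protein with few described functions, had 7.72 FPKM in CTRL and 14.2 FPKM in pLVX-*RBP4*. Its difference of 0.80 (ratio 1.84) was the 86th highest of all 12382 genes and the largest of the splicing genes, and the next RBM gene had 0.21. It became a member through a table of genes that the study had chosen for their difference in these libraries, so its value is a description of that choice. The study also measured *RBM34* by RT-qPCR and reports it as upregulated there too. Those measurements were not analysed here. The 2 primers of that assay, with 20 bases each, are shown because they define which part of the *RBM34* transcript it read.
*RBM34* forward primer: ttgtggctgtaaggatcgtg
*RBM34* reverse primer: ttctcaaagagcacgtagcc

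*RBM3*, a protein known for its induction by mild cold, was the most abundant RBM gene. It had 233.1 FPKM in CTRL and 269.4 FPKM in pLVX-*RBP4* (0.21, ratio 1.16). The lowest difference of the family belonged to *RBM27*, a partner of nuclear RNA decay, with 5.47 and 4.45 FPKM (-0.25, ratio 0.814). It was followed by *RBM5*, with 59.1 and 51.8 FPKM (-0.19). All other RBM genes above the filter lay between -0.18 for *RBM47*, with 1.22 and 0.962 FPKM, and 0.19 for *RBM8A*.

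*RBM5*, *RBM6* and *RBM10* encode related proteins that act on exon choice in genes of cell growth and death, and *RBM5* and *RBM6* are next to each other in the gene order of the RefSeq annotation of Sscrofa11.1. *RBM6* had 12.5 FPKM in CTRL and 11.7 FPKM in pLVX-*RBP4* (-0.090). *RBM10*, which lies elsewhere, had 41.4 and 41.6 FPKM (0.0086, negative with a common upper quartile). *RBM8A*, the Y14 subunit of the exon junction complex, had 6.79 and 7.90 FPKM (0.19). *RBM6*, *RBM10* and *RBM8A* were picked after their values were seen.

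**Figure D4:**
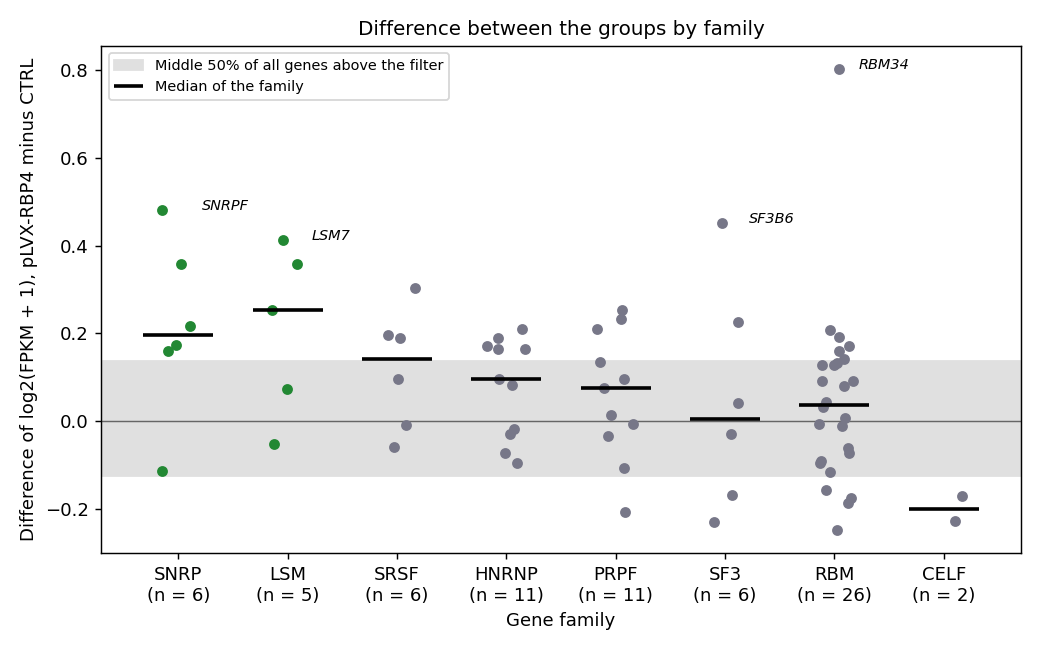
Difference of log2(FPKM + 1) between the groups (vertical axis) for each splicing gene above the filter (points), by family (horizontal axis, with the number of genes), with black bars for the family medians and a grey band for the middle 50% of all genes (-0.12 to 0.14). The medians of LSM (0.25), SNRP (0.196) and, narrowly, SRSF (0.14) lie above the band, that of CELF (-0.20) below it and those of the other families within it.

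Genes of related steps of RNA processing were taken from lists of symbols. The SMN complex and its partners load Sm rings onto small nuclear RNAs. Of the 10 genes of this list above the filter, 9 were higher in pLVX-*RBP4*, against 50.2% of all genes. With a common upper quartile 8 were higher, against 43.4% of all genes. At least 0.2 higher as deposited were 4, against 16.8% of all genes, and the median was 0.13. The highest was *STRAP*, with 63.4 FPKM in CTRL and 81.9 FPKM in pLVX-*RBP4* (0.36), and the lowest *GEMIN4*, with 13.2 and 11.5 FPKM (-0.18). *CLNS1A*, which holds Sm proteins before they reach the complex, had 41.7 and 53.0 FPKM (0.34) and was picked after its values were seen.

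Other proteins of the U particles, which carry SNRNP symbols, were higher in 5 of 6 cases (4 with a common upper quartile) with a median of 0.11. *SNRNP27* had 26.8 FPKM in CTRL and 35.4 FPKM in pLVX-*RBP4* (0.39), and *SNRNP200*, the large U5 helicase, had 41.9 and 36.3 FPKM (-0.20). Among 24 helicases and core proteins of the spliceosome, 10 were higher and the median was -0.0088 (16 and 0.064 with a common sum). There *CWC15* had 22.7 and 29.6 FPKM (0.37), and *CDC40* had 9.01 and 7.22 FPKM (-0.28). For the 29 other splicing regulators, 15 were higher and the median was 0.0065. With a common upper quartile 10 were higher (median -0.031), and with a common sum 20 (median 0.085). As deposited, the list had a range from -0.19 for *PTBP1* (166.8 and 145.6 FPKM) to 0.20 for *TRA2B* (40.7 and 47.1 FPKM). In the minor spliceosome list 2 of 4 genes were higher, from -0.083 for *SCNM1* to 0.196 for *ZMAT5*. Genes with SNRNP symbols are counted above and not in that list. Beside these lists, 50.2% of all genes were higher as deposited, 43.4% with a common upper quartile and 64.9% with a common sum.

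The remaining lists had medians below 0 as deposited, and with a common sum the first 2 of them had medians of 0.035 and 0.015. Of all genes, 50.2% were higher as deposited and 64.9% with a common sum. Of 10 kinases and carriers of SR proteins 3 were higher (median -0.040, 8 higher with a common sum), from -0.21 for *PRP4K* to 0.23 for *CLK4*. Of 14 SR-related cofactors 6 were higher (median -0.062, 7 higher with a common sum). *SRRM2*, the giant scaffold of nuclear speckles, had 87.3 FPKM in CTRL and 67.4 FPKM in pLVX-*RBP4* (-0.37), while *RSRC1* had 9.30 and 12.2 FPKM (0.36). In the list of the exon junction complex and mRNA decay, 3 of 15 genes were higher and the median was -0.15 (6 and -0.076 with a common sum). Of its exon junction complex genes, *EIF4A3* was higher (15.7 and 18.3 FPKM, 0.20) and *CASC3* lower (26.8 and 24.0 FPKM, -0.15). Both were picked after their values were seen. *UPF2*, a core factor of nonsense-mediated decay, had 6.54 and 4.60 FPKM (-0.43), and its partner *UPF3B* had 6.47 and 7.89 FPKM (0.25).

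**Figure D5:**
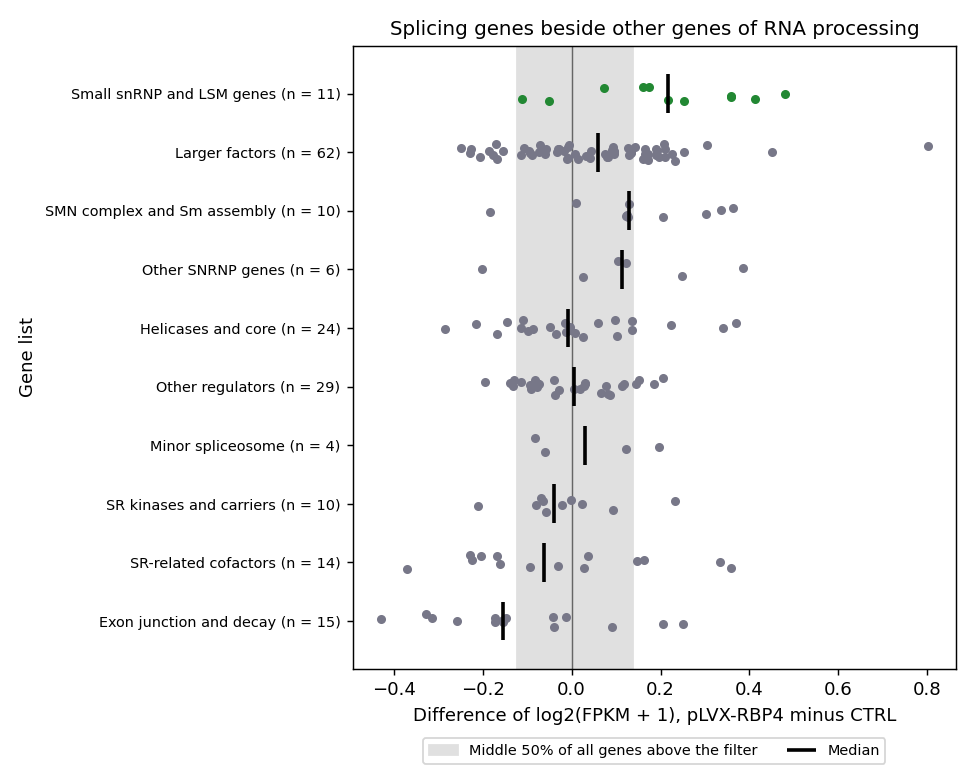
Difference of log2(FPKM + 1) between the groups (horizontal axis) for the small and the larger splicing genes and for 8 other lists of RNA processing genes (rows, with the number of genes above the filter), with points for genes, black bars for medians and a grey band for the middle 50% of all genes. The small SNRP and LSM genes have the highest median (0.22), followed by the SMN list (0.13), and the list of exon junction and decay genes has the lowest (-0.15).

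The counts depended on how the columns were scaled. The summed FPKM was 1129669 in CTRL and 1068962 in pLVX-*RBP4*. A single gene, the highest in CTRL, held 35.4% of the former sum and 25.8% of the latter. The common sum, and the sign changes given with it, therefore depend on this gene. That scaling was not repeated without it. Rescaled to a common sum, 64.9% of all genes, 10 of the 11 small genes and 48 of the 62 larger factors were higher. At least 0.2 higher were then 26.1% of all genes, 8 small genes and 20 larger factors. With a common upper quartile, 43.4% of all genes, 9 small genes and 34 larger factors were higher, and 13.6% of all genes, 5 small genes and 4 larger factors were at least 0.2 higher. Scaling moves the log2 values of all well expressed genes almost alike, so the distance of a class from the median of all genes, 0.22 for the small class and 0.058 for the larger factors as deposited, is nearly fixed by construction. The negative differences of *HNRNPUL1*, *SRSF6*, *SRSF11*, *SF3B2* and *LSM14B* turned positive with a common sum, whereas those of *SNRPA*, *SF3A1*, *SF3B3*, *PRPF6*, *PRPF8*, *RBM5* and *RBM27* did not.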

How the data were processed

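Total RNA of 3 libraries per group was sequenced. According to the methods of the study, the authors aligned the reads to Sscrofa10.2 with TopHat2, computed FPKM values and compared the groups with Cuffdiff. The deposited table holds FPKM values, 1 per gene and group, and which tool wrote it and how libraries were combined is not stated. Its 2 columns were matched to the groups by their letters, which the study's tables also use. The annotation release and tool versions are not given in the sources used here, and the library kit is not described there as keeping strand. From the 2 columns, differences of log2(FPKM + 1) were computed. No test was possible. Of 17950 genes, 10757 had a symbol, 10489 from a table of Ensembl names and 268 from supplementary tables of the study. Values and test columns of those tables were not used.

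The genes, lists, limits (0.2 and 0.5) and the level filter (1 FPKM) were chosen with earlier results of these data known. Named were the genes of the Sm and LSM groups, *RBM34*, and in each other family the most abundant gene and the 2 highest and 2 lowest differences, and in each other list the highest and the lowest, with additions marked in the text. A gene that this rule selects is not reported here by itself and stays in the counts and medians. The complexes within PRPF and RBM and the gene pairs were chosen after seeing the data. Protein and transcript lengths were not analysed here. The calculation was tested on simulated data. Python 3.11.15, numpy 2.4.6, pandas 2.3.3 and matplotlib 3.10.9 were used.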

Additional observations from a re-analysis of the deposited data

How the results depend on the processing

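No paired analysis was possible because the table gives 1 value per gene and group, and for the same reason no library could be left out in turn. The values were recomputed with 0.1 or 0.01 added in place of 1, without the level filter or with one at 5 FPKM, after scaling to a common median, upper quartile or sum, with class means, with 1 identifier per symbol, and with Ensembl names alone. Under these, the median difference of the small class ranged from 0.18 to 0.29 and that of the larger factors from 0.026 to 0.13, beside 0.22 and 0.060 as deposited, with the extremes from the common upper quartile and the common sum. The number of genes at least 0.2 higher, 15 as deposited, was 9 with a common upper quartile and 28 with a common sum. The number at least 0.2 lower, 4 as deposited, was 2 with the filter at 5 FPKM, 7 with a common upper quartile and 0 with a common sum. The shares of all genes moved as well. At least 0.2 higher were 16.8% as deposited, 13.6% with a common upper quartile and 26.1% with a common sum. At least 0.2 lower were 14.3%, 18.2% and 8.14%, in the same order. Several genes lie near the limit, among them *HNRNPR* (0.21), *RBM3* (0.21), *PRPF18* (0.21), *SRSF9* (0.197) and *RBM8A* (0.19). The precision of any single difference is not known, since the spread between libraries is not in the table. The depth of the libraries, which the study's supplement gives, was not used.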

Other observations

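The splicing genes with a difference of at least 0.3 were compared with the protein-coding genes next to them in the RefSeq gene order of Sscrofa11.1, a comparison chosen after seeing the data. For these 7 genes, 10 of the 14 neighbours had a value by symbol, and their differences, taken without the level filter, ranged from -0.20 to 0.18. *XPC*, next to *LSM3*, had 25.2 FPKM in CTRL and 25.1 FPKM in pLVX-*RBP4*. *TOMM20*, next to *RBM34*, had 56.4 and 62.2 FPKM (0.14), *SPPL2B*, next to *LSM7*, had 15.6 and 16.0 FPKM (0.032), and *NTN4*, next to *SNRPF*, had 10.9 and 12.5 FPKM (0.18). Since the 7 genes were chosen for their difference, and 4 of the 10 neighbours were below 1 FPKM, where the added 1 makes any difference small, these values are a description only.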
